A study of Mus musculus with 9 samples.

Results

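The complement genes C1qa, C1qb, C1qc, C3, C3ar1, C5ar1, Itgam, Cfb and Cfp were followed through RNA sequencing of BV2 cells, an immortalized mouse microglial line. Their rows were taken by gene name, and all 9 are among the 54532 genes of the expression table. The libraries fell into 3 groups of 3: Ctrl, kept in complete medium with 10% fetal bovine serum; OGD, which is oxygen-glucose deprivation in low-glucose medium with 4% serum under 4% oxygen; and OGD_A_485, OGD with A-485, an inhibitor of the histone acetyltransferases p300 and CBP. In the experiment that the study described just before its transcriptome, A-485 was present at 50 μM for the 24 h of OGD. Without a group given A-485 in complete medium, the values with A-485 describe the inhibitor under deprivation only. One cell line was used, and no source used here says whether the 3 libraries of a group came from separate cultures, so the p-values measure the spread between these libraries, which may be technical.

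Complement is a set of proteins that tag particles for removal, recruit immune cells and punch pores in membranes. The classical pathway starts when C1q, built of the chains A, B and C, binds a target, and the alternative pathway runs on factor B and is stabilized by properdin, the product of Cfp. Both pathways cleave C3, whose fragments act on C3a receptor (C3ar1) and on complement receptor 3, the integrin of Itgam (CD11b) and Itgb2, while C5a acts on C5ar1. In the brain, microglia are a main source of C1q, and C1q, C3 and complement receptor 3 are known for their part in the removal of synapses.

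Between 12593250 and 16091038 reads were assigned to genes per library, and 1 read on a gene of 1 kb was worth 0.0618 to 0.0786 FPKM (fragments per kilobase of gene, scaled by a divisor per library). The divisor was not the number of assigned reads. It was above that number in every Ctrl and OGD library and below it in every OGD_A_485 library, which places the FPKM of OGD_A_485 somewhat higher than scaling to assigned reads would. A lineage check found 11 of 12 microglia and macrophage markers at a mean level of 1 FPKM or more. P2ry12, a marker of resting microglia, was the exception, with a mean of 0.105 FPKM over the 9 libraries. The summed level of these 12 markers was 482 to 501 FPKM in Ctrl, 606 to 627 in OGD and 1120 to 1150 in OGD_A_485, so it moved in the same direction as most of the complement genes described here, and its part in their values was not tested. None of the 34 markers of 8 other cell types reached a mean of 1 FPKM and 11 were at 0 in every library. The neutrophil list summed to 0.0808 to 0.326 FPKM in Ctrl, 0.247 to 0.533 in OGD and 1.38 to 2.84 in OGD_A_485, where S100a8 made up 1.38 to 2.65 FPKM of it, with Ly6g and S100a9 at 0 throughout. In bulk RNA such as this, fewer cells of a kind and less RNA per cell cannot be told apart.

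OGD against Ctrl asks what the change of glucose, serum and oxygen together did to these transcripts, and these parts cannot be told apart. OGD_A_485 against OGD asks what A-485 changed during OGD. With A-485, the transcripts of properdin and of all 3 receptors were more than 2-fold higher than in OGD, C1qb and C1qc appeared from 0 or 1 read, and C3 was nearly level. OGD without A-485 raised Itgam and no other member past the thresholds. A gene was called when limma on log2(FPKM + 0.1) gave an unadjusted p below 0.01 and a log2 fold change beyond 0.5 in size, in a fit of the 16123 genes averaging 0.2 FPKM or more. Of the members 7 entered that fit, while C1qa and Cfb were below the minimum.

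C3, Cfp, C3ar1, C5ar1 and Itgam, 5 of the 9 members, had reads in every library. In OGD against Ctrl, 1 of these 5 was called higher and 0 lower, beside 11.2% of all genes tested called higher and 9.81% called lower. Their median log2 fold change was 0.09, against 0.01 over all genes. In OGD_A_485 against OGD, 4 of the 5 were called higher and 0 lower, where 12.2% of all genes were called higher and 13.4% lower, and the median was 1.32 against 0.01. In OGD_A_485 against Ctrl, 4 of the 5 were again called higher and 0 lower, where 17.0% of all genes were called higher and 16.6% lower, and the median was 1.03 against 0.02. C1qb and C1qc were also called higher in both comparisons with A-485, but they passed the minimum level only through the A-485 libraries and so had to differ. Any pair of these comparisons shares a group of libraries, so their counts are not independent.

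**Figure D1:**
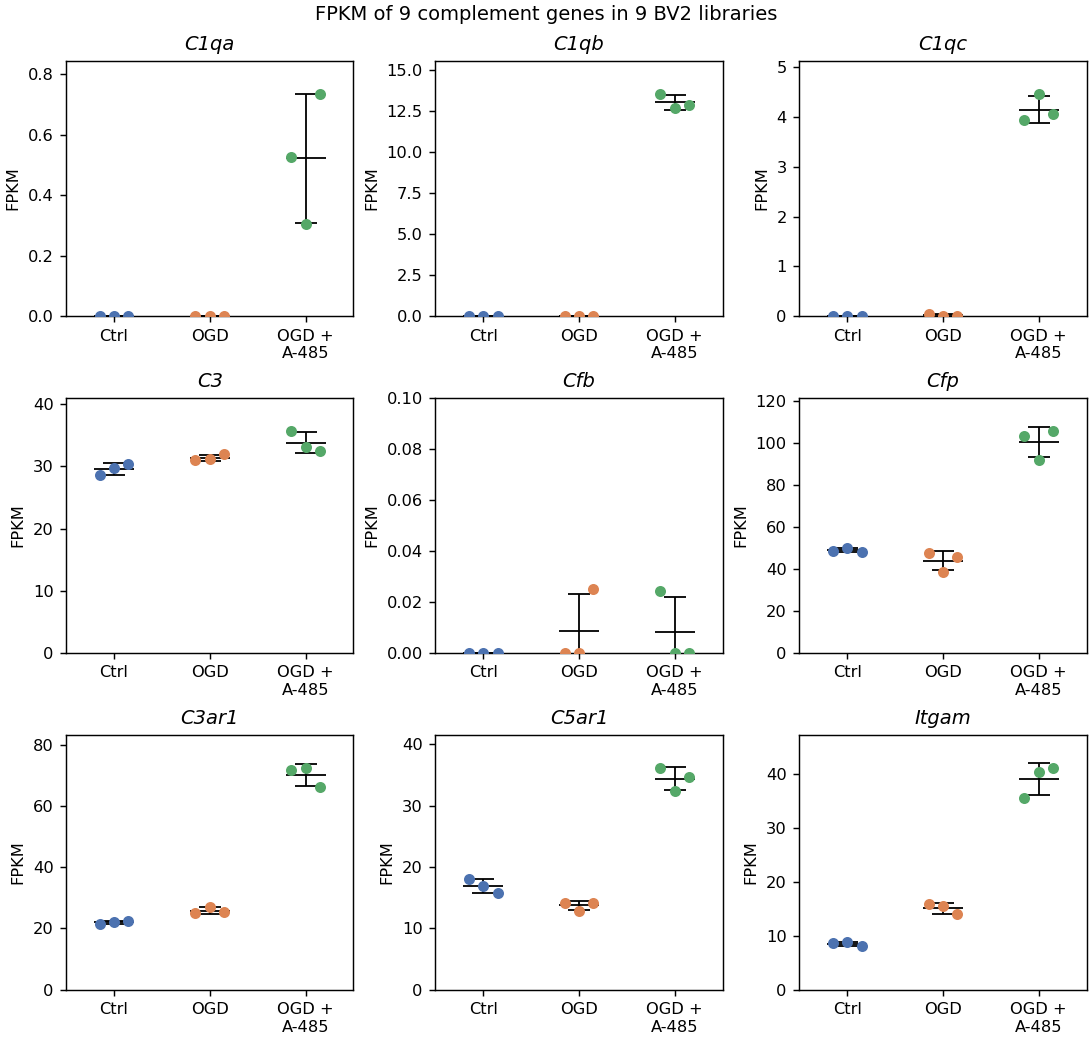
FPKM of each of the 9 genes (vertical axes, each with its own scale starting at 0) in the 3 Ctrl, 3 OGD and 3 OGD_A_485 libraries; points are libraries, horizontal lines the group means and bars 1 SD. The 3 A-485 libraries stand above all others for every gene but Cfb, which never had more than 1 read.

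The genes of the 3 C1q chains lie side by side on the minus strand of chromosome 4 (build GRCm38), in the order C1qb (136880129 to 136886187), C1qc (136889804 to 136893065) and C1qa (136895917 to 136898803). The cluster spans 18675 bases, with 3616 bases between C1qb and C1qc and 2851 between C1qc and C1qa. The stretches before the RefSeq start sites of C1qb and C1qc are shown because these genes went from no or 1 read to a measurable level, those of Itgam because it was called higher in every comparison, and those of C3 because it was called in none. Capitals mark GAGGAA, the core letters bound by PU.1 and other Ets factors, or its complement TTCCTC. The sequences are from RefSeq on GRCm38.p6 and read in the direction of the gene. For C1qc only the part outside the annotated gene is printed.
C1qb, chr4:136886201-136886450, minus strand: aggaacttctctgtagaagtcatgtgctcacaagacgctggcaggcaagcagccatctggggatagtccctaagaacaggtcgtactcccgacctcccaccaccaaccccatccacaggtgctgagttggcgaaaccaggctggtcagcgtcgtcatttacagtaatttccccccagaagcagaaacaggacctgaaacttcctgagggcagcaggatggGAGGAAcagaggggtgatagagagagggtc
C1qc, chr4:136893066-136893164, minus strand: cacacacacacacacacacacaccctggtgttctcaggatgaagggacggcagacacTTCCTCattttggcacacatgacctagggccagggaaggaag
Itgam, chr7:128062390-128062639, plus strand: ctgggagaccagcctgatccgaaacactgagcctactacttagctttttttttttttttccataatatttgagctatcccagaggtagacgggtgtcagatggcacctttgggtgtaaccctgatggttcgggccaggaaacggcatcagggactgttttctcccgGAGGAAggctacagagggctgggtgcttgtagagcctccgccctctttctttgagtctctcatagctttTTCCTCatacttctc
C3, chr17:57228137-57228386, minus strand: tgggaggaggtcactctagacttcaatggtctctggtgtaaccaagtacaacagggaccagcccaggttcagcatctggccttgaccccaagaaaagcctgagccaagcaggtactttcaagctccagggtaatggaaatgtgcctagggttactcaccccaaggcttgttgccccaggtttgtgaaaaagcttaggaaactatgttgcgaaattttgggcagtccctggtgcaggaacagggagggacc

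The 250 bases before the start were searched on both strands in the 7 members with a RefSeq entry in the table used, and in all 32851 such windows. GAGGAA was in 3 of the 7 (C1qb at base -30, C1qc at -193, Itgam at -84 and -15 from the start) and in 23.3% of all windows. It was absent from the windows of Cfp, C3ar1 and C5ar1, which were also called higher with A-485, and from that of C3. The AP-1 letters TGANTCA were in 1 of 7 (C3ar1) against 6.75% of all windows, TTGCNNAA, read by C/EBP factors, in 1 (C3) against 9.56%, and GAAANNGAA, read by interferon regulatory factors, in 1 (C5ar1) against 7.13%. The NF-kB motif was in 1 (C1qc) against 3.90%, and the core of hypoxia-inducible factor sites, ACGTG, was in 0 of 7 against 16.6%. The file's annotation places the start farther upstream for some members, so that 151 of the 250 bases for C1qc, 202 for C5ar1 and 4 for C3ar1 lie inside the annotated gene, and the NF-kB match of C1qc (at -41) and the GAAANNGAA match of C5ar1 (at -66) fall in those parts. These matches describe letters in short windows and not bound sites.

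C1qb, the B chain of C1q, had 0 reads in the 3 Ctrl and the 3 OGD libraries and 215, 218 and 202 reads in the A-485 libraries, which is 13.5, 12.7 and 12.9 FPKM (13.0 ± 0.440, SD, n = 3). All 3 A-485 libraries lay close together and far above the other 6. For a group at 0, 3 reads over the group were taken as an upper limit, about the 95% limit by counting error alone. The A-485 reads were taken as counted, without their own counting error. On that basis C1qb was at least 188-fold higher in OGD_A_485 than in OGD and at least 207-fold higher than in Ctrl. No p-value is given for it, since its place in the fit came from the A-485 libraries alone.

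C1qc, the C chain, had 0 reads in every Ctrl library, 1 read in the first OGD library and 0 in the other two, and 111, 136 and 113 reads with A-485. The A-485 libraries were at 3.93, 4.46 and 4.06 FPKM (4.15 ± 0.274, SD, n = 3) and overlapped with none of the others. Against Ctrl this is at least 117-fold higher by the same limit, with the A-485 reads again taken as counted. Against OGD the ratio was 320, with a 95% exact interval of 57.0 to 12700 that covers counting error only and is wide because it rests on 1 read. As for C1qb, no p-value is given.

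C1qa, the A chain, had 0 reads in Ctrl and OGD and 8, 5 and 11 reads with A-485, or 0.526, 0.304 and 0.734 FPKM (0.522 ± 0.215, SD, n = 3). All 3 A-485 libraries were above the 6 at 0. With the other groups at the same limit and the 24 A-485 reads as counted, the group was 7.11-fold above OGD and 7.82-fold above Ctrl. The counting error of these few A-485 reads is left out, so these folds are not strict lower bounds. Its mean over the 9 libraries, 0.174 FPKM, was under the minimum of the fit, so no p-value is given.

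The chains of this one protein were present at unequal transcript levels. Within the A-485 libraries, FPKM of C1qb was 3.44, 2.84 and 3.17 times that of C1qc (3.15 ± 0.297, SD, n = 3). C1qb was 25.7, 41.7 and 17.6 times as high as C1qa (28.3 ± 12.3), a ratio that rests on 24 C1qa reads in all, beside 635 of C1qb and 360 of C1qc. How these ratios compare with those in Ctrl or OGD cannot be computed at 0 reads.

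The protein-coding genes on either side did not share this appearance. Epha8, an ephrin receptor 30616 bases away, had at most 2 reads in any library, and Ephb2, another one 44141 bases away on the other side, at most 3. Zbtb40, a zinc finger gene 80929 bases from the cluster, was at 6.06 ± 0.181 FPKM in Ctrl, 5.23 ± 0.177 in OGD and 3.78 ± 0.242 in OGD_A_485 (SD, n = 3). With A-485 its log2 fold change was -0.46 (adjusted p = 0.000387, limma) against OGD, short of the threshold of 0.5. Against Ctrl it was called lower, at -0.67 (adjusted p = 2.72e-05, limma). Over the 50 nearest genes on the chromosome that averaged 1 FPKM or more, the median log2 fold change with A-485 against OGD was 0.01.

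**Figure D2:**
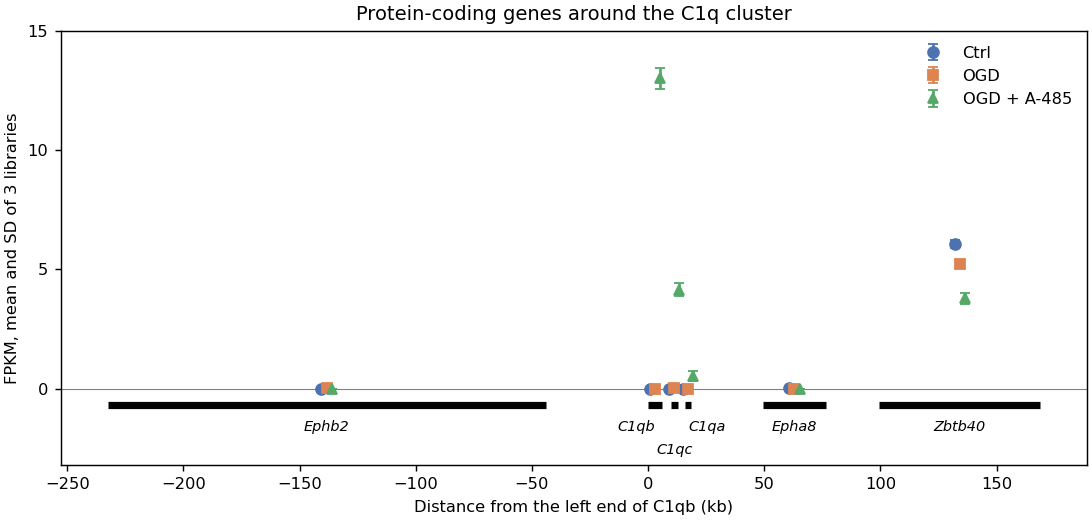
Mean FPKM and SD of 3 libraries per group (vertical axis) for the protein-coding genes around the C1q cluster, by distance in kb from the left end of C1qb (horizontal axis); black bars show the extent of each gene and the groups are offset sideways so that they can be seen. The 3 chains were above 0 with A-485, Ephb2 and Epha8 were near 0 in every group, and Zbtb40 was lowest with A-485.

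C3, the protein on which all complement pathways converge (chromosome 17, 57203970 to 57228136, minus strand), was at 28.6, 29.7 and 30.5 FPKM in Ctrl, 31.0, 31.2 and 32.0 in OGD and 35.7, 33.1 and 32.5 in OGD_A_485. In the deposited FPKM every OGD library lay a little above every Ctrl library, and every A-485 library a little above every OGD library. The steps were small. The log2 fold change was 0.09 (95% confidence interval -0.02 to 0.19, adjusted p = 0.149, limma) for OGD against Ctrl and 0.10 (0.005 to 0.205, adjusted p = 0.0785) for OGD_A_485 against OGD. For OGD_A_485 against Ctrl it was 0.19 (0.09 to 0.29), with an adjusted p of 0.00509 and a size under the threshold of 0.5. These steps depended on the scaling. With values scaled to the reads assigned to genes, OGD_A_485 against Ctrl was at 0.076 (adjusted p = 0.158, limma). OGD against Ctrl was then at 0.036 and OGD_A_485 against OGD at 0.04.

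The genes around C3 had a shift of their own. The 50 nearest measured genes on chromosome 17 had a median log2 fold change of 0.18 in OGD against Ctrl and of -0.40 in OGD_A_485 against OGD. Relative to them, C3 was at -0.10 (-0.095 before rounding) in the first comparison and at 0.50 in the second, so its place among the called genes depended on whether it was read against the whole table or against its surroundings. The part of the neighbours' shift in the value of C3 was not tested.

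Cfp encodes properdin, which holds the alternative pathway convertase together (X chromosome, 20925454 to 20931555, minus strand). It was the most abundant member in every group, with 48.8, 49.97 and 47.9 FPKM in Ctrl, 47.5, 38.7 and 45.5 in OGD and 103, 92.1 and 106 in OGD_A_485. The OGD libraries were all below those of Ctrl, the second one most, and the A-485 libraries were all about 2-fold above the rest. The OGD mean of 43.9 ± 4.61 FPKM and the Ctrl mean of 48.9 ± 1.03 (SD, n = 3) gave a log2 fold change of -0.16 ± 0.08 (SE), which did not pass (adjusted p = 0.138, limma). With A-485 Cfp rose 2.29-fold over OGD, a log2 fold change of 1.19 ± 0.08 (SE, adjusted p = 4.07e-06), and stood 2.05-fold above Ctrl (adjusted p = 5.83e-06).

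Cfb, the alternative pathway protease factor B (chromosome 17, 34856374 to 34862518, minus strand), was not detectable at this depth. It had 0 reads in the Ctrl libraries, 1 read in the third OGD library and 1 read in the first A-485 library. All 3 groups are under the limit of 3 reads used for a count of 0, so no fold is given. Of the alternative pathway transcripts, that of properdin was thus measured at a high level, that of C3 at an intermediate one, and that of factor B at or near 0. Cfd, which encodes factor D, the protease that cleaves factor B, had at most 1 read in any library.

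C3ar1, the receptor of the C3a fragment (chromosome 6, 122847138 to 122856161, minus strand), was at 21.4, 21.9 and 22.6 FPKM in Ctrl, 25.1, 27.0 and 25.3 in OGD and 71.8, 72.4 and 66.1 in OGD_A_485. The 3 groups did not overlap, and the step with A-485 was much the larger one. For OGD against Ctrl the log2 fold change was 0.23 ± 0.05 (SE, adjusted p = 0.00368, limma), below the size needed for a call. With A-485 it rose 2.71-fold over OGD (log2 fold change 1.44 ± 0.05, adjusted p = 1.04e-07) and was 3.18-fold above Ctrl.

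C5ar1, the main receptor of C5a (chromosome 7, 16246743 to 16259540, minus strand), was at 18.1, 16.9 and 15.7 FPKM in Ctrl, 14.2, 12.9 and 14.2 in OGD and 36.2, 32.4 and 34.7 in OGD_A_485. Here the OGD libraries were the low ones, all under Ctrl, and the A-485 libraries the high ones. The log2 fold change for OGD against Ctrl was -0.30 ± 0.07 (SE, adjusted p = 0.00592, limma), not a call by size. With A-485 C5ar1 rose 2.49-fold over OGD (1.32 ± 0.07, adjusted p = 8.55e-07) and was 2.03-fold above Ctrl.

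C5ar2, which encodes a second C5a receptor that does not couple to G proteins, lies 2588 bases from C5ar1 with no gene between. Its level was much lower, at 1.93 ± 0.165 FPKM in Ctrl, 1.08 ± 0.189 in OGD and 1.85 ± 0.196 in OGD_A_485 (SD, n = 3). It was called lower in OGD (log2 fold change -0.78, adjusted p = 0.00223, limma) and higher with A-485 against OGD (0.73, adjusted p = 0.00295), where its mean was close to that of Ctrl (-0.06, 95% confidence interval -0.39 to 0.28, adjusted p = 0.771). Both of its calls lost the required size with a pseudocount of 1 FPKM. Hc, the gene of C5 itself, had at most 3 reads in any library.

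Itgam, the alpha subunit of complement receptor 3 (chromosome 7, 128062640 to 128118491, plus strand), was at 8.63, 8.80 and 8.002 FPKM in Ctrl, 15.8, 15.6 and 13.97 in OGD and 35.7, 40.4 and 41.2 in OGD_A_485. Each group lay wholly above the one before. Itgam rose 1.77-fold in OGD (log2 fold change 0.83 ± 0.07, SE, adjusted p = 2.73e-05, limma) and a further 2.57-fold with A-485 (1.36 ± 0.07, adjusted p = 1.11e-06), and ended 4.56-fold above Ctrl (2.19, adjusted p = 5.32e-08). An annotated gene that overlaps it on the same strand, Gm49368, had at most 8 reads.

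Itgb2, the beta subunit that pairs with Itgam, was at 32.1 ± 1.79 FPKM in Ctrl, 73.7 ± 3.14 in OGD and 104 ± 1.83 in OGD_A_485 (SD, n = 3). It rose in OGD with a log2 fold change of 1.196 (adjusted p = 6.61e-07, limma), beside 0.83 for Itgam, and its log2 fold change of 0.496 with A-485 (adjusted p = 4.37e-05) was just short of the threshold. The FPKM ratio of Itgam to Itgb2 within a library was 0.258, 0.269 and 0.266 in Ctrl, 0.226, 0.206 and 0.185 in OGD and 0.342, 0.396 and 0.390 in OGD_A_485. The OGD libraries were lowest and the A-485 libraries highest, with no overlap. The log2 ratio differed by -0.36 between OGD and Ctrl and by 0.87 between OGD_A_485 and OGD, each with a two-sided exact permutation p of 0.1, the smallest that 3 against 3 libraries can give, and 0.133 after adjustment over the 4 ratio tests.

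Itgax, the alpha subunit of complement receptor 4, uses the same beta subunit and lies 11055 bases from Itgam. It had 8.27 ± 0.564 FPKM in Ctrl, 18.6 ± 1.03 in OGD and 11.7 ± 0.640 in OGD_A_485 (SD, n = 3). Like Itgam it rose in OGD (log2 fold change 1.16, adjusted p = 3.3e-06, limma), but it fell with A-485 against OGD (-0.67, adjusted p = 4.67e-05). In OGD the FPKM of Itgax was above that of Itgam in every library, and with A-485 it was below it in every library.

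The ratio of the anaphylatoxin receptors, FPKM of C3ar1 over C5ar1, was 1.30 ± 0.126 in Ctrl, 1.88 ± 0.183 in OGD and 2.04 ± 0.174 in OGD_A_485 (SD, n = 3). OGD and Ctrl did not overlap, with a difference in the log2 ratio of 0.53 (exact permutation p = 0.1, 0.133 adjusted). OGD_A_485 and OGD overlapped, with a difference of 0.12 (exact permutation p = 0.3, 0.3 adjusted).

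**Figure D3:**
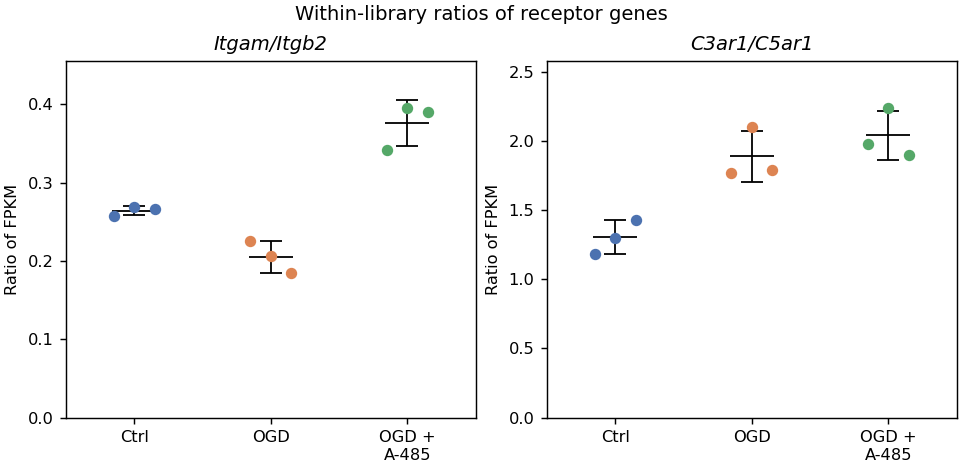
Ratio of FPKM within each library (vertical axes, starting at 0) for Itgam over Itgb2 (left) and C3ar1 over C5ar1 (right); points are libraries, horizontal lines means and bars 1 SD. The left ratio was lowest in OGD (0.206) and highest with A-485 (0.376), and the right one was higher in both deprived groups (1.88 and 2.04) than in Ctrl (1.30).

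**Figure D4:**
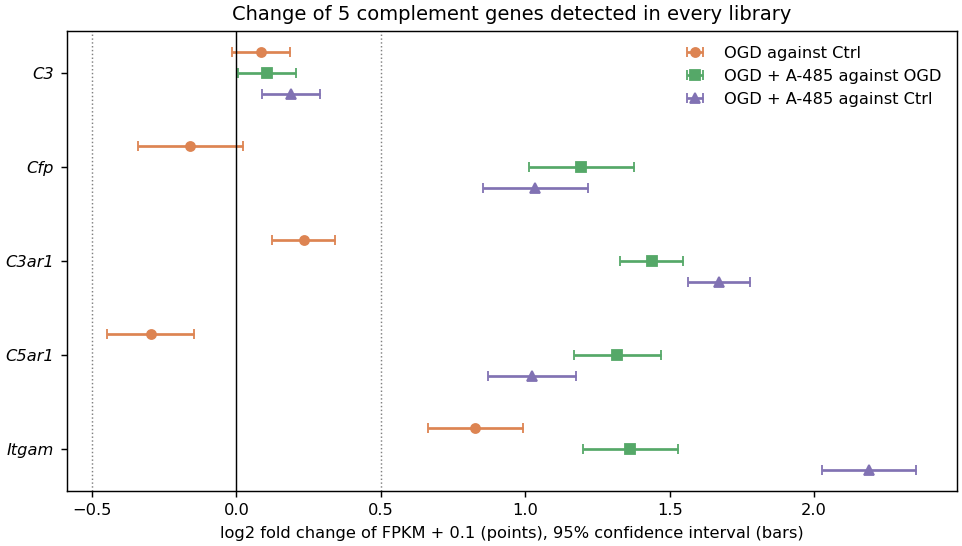
Log2 fold change of FPKM + 0.1 (horizontal axis; points, with 95% confidence intervals as bars) for the 5 members with reads in every library, in the 3 comparisons; dotted lines mark the size of 0.5 needed for a call. Cfp, C3ar1, C5ar1 and Itgam lie beyond 1 in both comparisons with A-485, C3 stays inside the dotted lines, and only Itgam lies beyond them in OGD against Ctrl.

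FPKM is a level per length, so the members can be ranked within a group. In Ctrl the order was Cfp, C3, C3ar1, C5ar1 and Itgam, with no overlap between neighbours in this order. In OGD Itgam (13.97 to 15.8 FPKM) moved up beside C5ar1 (12.9 to 14.2), and the ranges of the pair overlapped. In OGD_A_485 C3ar1 came second at 70.1 ± 3.46 FPKM (SD, n = 3) after Cfp at 100.4 ± 7.31, followed by Itgam at 39.1 ± 2.99, C5ar1 at 34.4 ± 1.93 and C3 at 33.8 ± 1.68. The last 3 could not be ordered firmly, since the lowest Itgam library and the ranges of C5ar1 and C3 overlapped. C1qb, C1qc and C1qa followed in that order, all below C3.

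A further 49 complement genes were listed by role, and 17 of them averaged 0.2 FPKM or more. In OGD against Ctrl 7 of the 17 were called higher and 3 lower, where 11.2% and 9.81% of all genes tested were (median log2 fold change 0.44 beside 0.01), and in OGD_A_485 against OGD 6 were called higher and 3 lower, where 12.2% and 13.4% of all genes were (median 0.32 beside 0.01). The other 32 were not tested and 8 of them had no read in any library. Most of the cascade downstream of C3 was in this set: C6 and C7 had at most 1 read in any library, and C8a and C8b had 0.

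Among 16 genes of the classical and lectin pathways 4 were tested. C1ra, the protease of the C1 complex that C1q activates, was at 4.56 ± 0.837 FPKM in Ctrl, 2.38 ± 0.246 in OGD and 4.75 ± 0.528 in OGD_A_485 (SD, n = 3). It was called lower in OGD (log2 fold change -0.90, adjusted p = 0.000891, limma) and higher with A-485 (0.97, adjusted p = 0.000497), where it differed from Ctrl by 0.07 (95% confidence interval -0.26 to 0.395, adjusted p = 0.723). C1s1, which encodes its partner protease C1s, had at most 4 reads. Fcna, a ficolin that starts the lectin pathway, rose from 2.14 ± 0.413 FPKM in Ctrl to 4.09 ± 0.564 in OGD (0.91, adjusted p = 0.00151) and was at 6.02 ± 0.838 with A-485. There the call against OGD (0.55, adjusted p = 0.0194) was lost under 10 of the other settings tried, among them leaving out any one A-485 library, the first or second OGD library or the third Ctrl library.

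Receptors and their partners made up 10 of the list and 8 of those tested. Cd93, a receptor linked to phagocytosis, rose from 12.4 ± 0.456 FPKM in Ctrl to 33.6 ± 1.59 in OGD (log2 fold change 1.44, adjusted p = 2.39e-07, limma) and fell to 21.5 ± 0.0684 with A-485 (-0.64, adjusted p = 5.35e-06). Calr, calreticulin, a chaperone that also binds C1q at the cell surface, moved the other way, from 203 ± 5.22 to 127 ± 8.14 FPKM in OGD (-0.68, adjusted p = 1.15e-05) and to 255 ± 5.75 with A-485 (1.005, adjusted p = 8.55e-07). Lrp1, its partner in the uptake of C1q-coated particles, was at 40.0 ± 2.81 FPKM in Ctrl, 63.4 ± 4.15 in OGD and 95.4 ± 6.56 with A-485, and was called higher at each step (0.66, adjusted p = 8.75e-05, and 0.59, adjusted p = 0.00014). With the median of the 50 neighbouring genes removed, Cd93 (-0.409) and Lrp1 (0.438) no longer passed the size threshold with A-485, and nor did Lrp1 under quantile normalization (0.436).

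Of 15 regulators 3 were tested. Cr1l, the gene of the rodent inhibitor Crry, which was counted with the receptors, had 2.27 ± 0.396 FPKM in Ctrl, 1.72 ± 0.0937 in OGD and 2.94 ± 0.107 with A-485 (SD, n = 3). It was called higher with A-485 against OGD (log2 fold change 0.74, adjusted p = 0.00128, limma) and was at -0.37 in OGD (adjusted p = 0.0439), not a call. Cd59a, which blocks the membrane attack complex, rose from 1.25 ± 0.302 to 2.31 ± 0.326 FPKM in OGD (0.84, adjusted p = 0.0026), and was at 2.88 ± 0.0516 with A-485. Clu, clusterin, a soluble inhibitor of the same complex, rose from 57.2 ± 1.47 to 90.1 ± 2.90 FPKM in OGD (0.65, adjusted p = 2.24e-05) and was at 80.6 ± 6.01 with A-485 (-0.16, adjusted p = 0.0354). Cd55, which speeds the decay of convertases, had no read in any library. C9, a pore-forming terminal component, was called lower with A-485 (-1.51, adjusted p = 0.00793) at levels under 1 FPKM in every library.

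**Figure D5:**
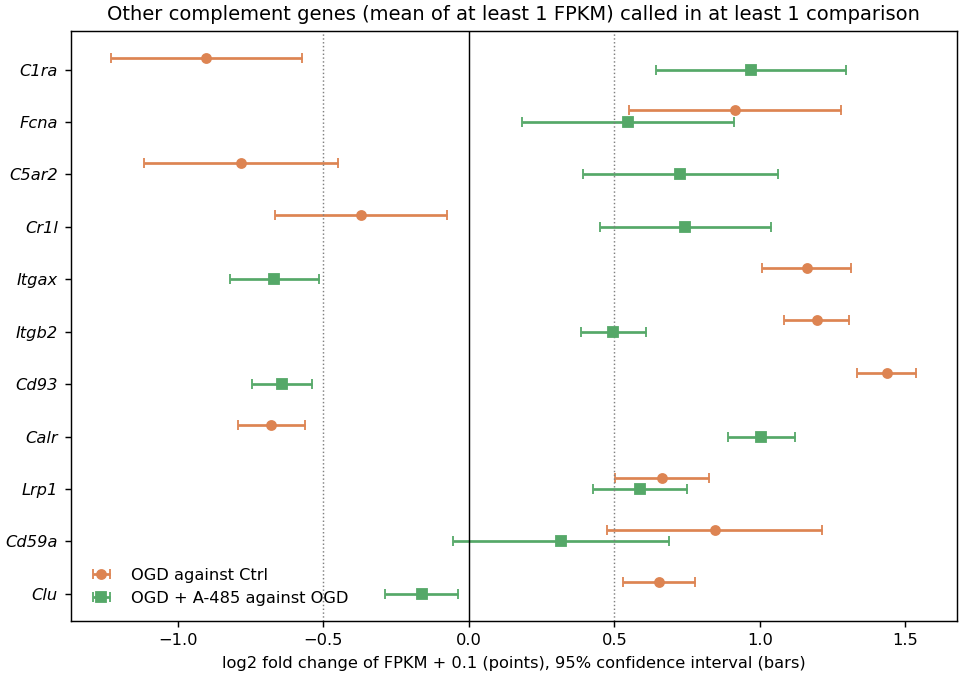
Log2 fold change of FPKM + 0.1 (horizontal axis; points, with 95% confidence intervals as bars) for the 11 further complement genes averaging 1 FPKM or more that were called in OGD against Ctrl or in OGD_A_485 against OGD; dotted lines mark a size of 0.5. Beyond the dotted lines, C1ra, C5ar2 and Calr lie to the left in OGD and to the right with A-485, Itgax and Cd93 the reverse, and Fcna and Lrp1 lie to the right in both. Itgb2, Cd59a and Clu lie beyond them only in OGD against Ctrl, and Cr1l only with A-485.

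For each member averaging 1 FPKM or more, the genes of most similar profile were sought among 11891 genes by the root mean square difference of the centred log2(FPKM + 0.1) over the 9 libraries, given here in log2 units. Cfp was closest to Spi1 (0.07), the gene of PU.1, a transcription factor of the myeloid lineage, which was at 43.9 ± 0.852 FPKM in Ctrl, 38.5 ± 3.30 in OGD and 97.9 ± 6.40 with A-485 (SD, n = 3), and to Il17ra (0.07). Itgam was closest to Cyfip2 and Lgals3 (0.09 each), the latter encoding galectin-3, at 128 ± 3.23 FPKM in Ctrl, 252 ± 9.97 in OGD and 613 ± 21.5 with A-485. C3ar1 was closest to Rab3d (0.07) and Pilrb1 (0.08), and C5ar1 to Tmem273 (0.07) and Pik3r1 (0.08). C3 was nearest to Uqcrc2 (0.02) and Rps6ka1 (0.03), which were as level as itself. C1qb was nearest to Chrna9 (0.18), a nicotinic receptor subunit that went from 0.00773 FPKM in Ctrl and 0.0243 in OGD to 14.1 with A-485, and to Galnt12 (0.25), and C1qc to the noncoding RNA AI427809 and to Lyplal1 (0.17 each), both listed at 0 in Ctrl and OGD. C1qb and C1qc reached 1 FPKM only through the A-485 libraries and had 0 or 1 read elsewhere. Their profiles therefore depend on the added 0.1, and their nearest genes were bound to be others near 0 without A-485.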

How the data were processed

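RNA of 9 BV2 libraries was analysed, in 3 groups of 3 taken from the sample titles. Per the labels, libraries were made from total RNA with a SMARTer mRNA-seq kit. The authors counted reads per gene with featureCounts and deposited FPKM values with Ensembl gene identifiers on GRCm38 (also given as mm10). The aligner and whether strand was used in counting are not given in the sources used here, so reads of overlapping antisense genes could not be told apart. Every deposited FPKM value was a whole number of reads within a tolerance of 0.05, which gave reads per gene and the depths reported. Gene coordinates were checked against GENCODE M21, where all 9 members matched.

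FPKM + 0.1 was log2 transformed, genes with a mean under 0.2 FPKM were left out, and the remaining 16123 were fitted together over the 9 libraries with limma 3.58.1 in R 4.3.3 (a mean per group, trended empirical Bayes), since the deposited unit is FPKM. A fit of the recovered reads was kept as an alternative. Fold changes are on that scale and understate those of low genes. Genes were called at the study's thresholds, p below 0.01 and a log2 fold change beyond 0.5, and adjusted p-values are Benjamini-Hochberg over all genes tested. Folds against a group at 0 used 3 reads over the group as its upper limit, about the 95% limit by counting error. They took the A-485 reads as counted and leave out the counting error of those reads. Intervals and limits cover counting error only. Libraries of a group differed by 2.8 to 5.73 times the counting variance, so none was a copy of another. Within-library FPKM ratios of the C1q chains could not be tested, since Ctrl and OGD had 0 reads, and 4 ratio tests by exact permutation remained. The members, the list of further complement genes, the motifs and the markers were chosen with earlier results of these data known. All members were named, and from the further list every gene averaging 1 FPKM or more and called in OGD against Ctrl or OGD_A_485 against OGD; C9 and the genes given only by their highest read count were named after their values were seen. Alternatives were another pseudocount, filter, scaling, variance model, threshold or set of libraries, a replicate block, limma-voom on the recovered reads, and removal of the median of 50 neighbouring genes.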

Additional observations from a re-analysis of the deposited data

How the results depend on the processing

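The number of members called was 1 higher and 0 lower for OGD against Ctrl under each alternative but one. At an adjusted p under 0.05 with no limit on size it was 2 higher (Itgam and C3ar1) and 1 lower (C5ar1). In both comparisons with A-485 it was 6 or 7 higher and 0 lower under every alternative tried, but this includes C1qb and C1qc, which the minimum level bound to differ, and of the further complement genes 4 to 8 were called higher and 2 to 4 lower with A-485 against OGD. C3 turned to -0.095 in OGD against Ctrl with the median of the 50 neighbouring genes removed. That setting also brought C3 to 0.504 with A-485 against OGD and to 0.521 against Ctrl, past the thresholds. Under quantile normalization C3 was at -0.003 with A-485 against OGD, on the other side of 0 from the 0.105 of the main fit. Over all alternatives the log2 fold change with A-485 against OGD ranged from 1.05 to 1.26 for Cfp, 1.12 to 1.48 for C3ar1, 1.23 to 1.36 for C5ar1 and 1.19 to 1.43 for Itgam, and from 0.77 to 0.98 for Itgam in OGD against Ctrl. The fitted log2 fold changes of C1qb (3.81 to 10.35) and C1qc (2.34 to 7.92) moved with the pseudocount and are no measure of size, and since these genes entered the fit only through the A-485 libraries, their calls were not free to change. Libraries sharing a number showed no common deviation (mean correlation of deviations -0.03, against 0.01 for different numbers). No pairing by number was thus detected, which cannot exclude that libraries of 1 number were handled together. With the replicate block, 3288, 4046 and 5317 of all genes were called in the 3 comparisons, against 3384, 4139 and 5431 without it, and the members called higher stayed at 1, 6 and 6, C1qb and C1qc included in the last 2. For single genes, counting each gene, comparison and alternative once, 875 values were classed as the same, 12 came to pass, 15 no longer passed and 1 turned. The values classed as the same include the -0.003 of C3, which crossed 0 by little. Depth limited C1qa and Cfb, at 11 reads or fewer per library.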
